A study of Mus musculus with 4 samples.

Results

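The OAS family comprises the genes of the 2′,5′-oligoadenylate synthetases and their synthetase-like relatives. It was followed in mature olfactory sensory neurons of mice through 8 genes, taken by symbol from a table of 28168 loci: Oas1a, Oas1b, Oas1c, Oas1g, Oas2, Oas3, Oasl1 and Oasl2. Each symbol matched a single locus. A further 4 Oas1 loci were read beside them. The neurons were sorted by fluorescence from papain-dissociated olfactory epithelium, and polyadenylated RNA was sequenced in 4 libraries. The 2 libraries of the Nd1 group came from mice with the genotype Nd1+/-, OMP-IRES-tTA+/- and OMP-IRES-GFP+/-. Of the 2 control libraries, that of replicate 1 was Nd1+/- without tTA (OMP-IRES-tTA-/-) and that of replicate 2 was Nd1-/- with OMP-IRES-tTA+/-, both again with OMP-IRES-GFP+/-. In each group the age was 212 days in replicate 1 and 87 days in replicate 2. Every library thus carried the GFP reporter at Omp, the olfactory marker protein gene, and the transcriptional activator tTA was placed at the same gene, which mature olfactory sensory neurons express. Per the series title, the transgene makes the mice express double-stranded RNA (dsRNA) from the genome. The number of mice behind each library is not stated in the labels.

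The deposited table holds a single pooled value per group and locus, in FPKM, a fragment count corrected for transcript length and for the size of the library. No spread between replicates, no depth per library and no detection floor can therefore be given, and all levels below are the authors' pooled FPKM. A locus is said to have risen or fallen only where the authors' own test of Nd1 against control, made with Cuffdiff, reached q under 0.05. In these bulk samples, more cells with a transcript and more transcript per cell cannot be told apart.

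OAS proteins are sensors of dsRNA. On binding it, the active synthetases join ATP into short 2′,5′-linked oligoadenylates, second messengers that lead to the cutting of viral and cellular RNA. The genes are classical targets of interferon, whose signal reaches them through a complex that contains STAT2 and IRF9 at interferon-stimulated response elements. In mice the Oas1 gene has expanded into a tandem family, of which Oas1a and Oas1g encode active synthetases.

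The promoters are shown because the family is known for this response element. RefSeq windows (GRCm38.p6) of 300 bases, 250 before and 50 after the listed start, matched 6 of the 8 genes. The core of the element, GAAANNGAAA, was searched on both strands, overlapping copies included. It was present in 4 of these 6 windows, against 3.44% of 32851 promoter windows of all genes. Oas1a and Oas1g each held 2 overlapping copies, which ended 5 bases before the listed start in Oas1a and 3 bases before it in Oas1g. Both copies lay in a run of 73 identical bases, the longest shared by the Oas1a and Oas1g windows. Oas1c also held 2 overlapping copies, on the opposite strand and between 114 and 99 bases before the start. Oas3 held 1 copy, between 75 and 66 bases before the start. The windows of Oasl1 and Oasl2 held none, which says only that these letters are not in this stretch. The gamma-activated site TTCNNNGAA, which reads the same on both strands, was found in 1 of the 6 windows, that of Oas1a, and in 8.30% of all windows. Stretches of 120 bases follow, in the direction of the gene, with the core element in capitals.
Oas1a, chr5:120907476-120907595, minus strand: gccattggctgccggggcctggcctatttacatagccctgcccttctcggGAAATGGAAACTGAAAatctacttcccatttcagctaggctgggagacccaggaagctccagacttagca
Oas1g, chr5:120887564-120887683, minus strand: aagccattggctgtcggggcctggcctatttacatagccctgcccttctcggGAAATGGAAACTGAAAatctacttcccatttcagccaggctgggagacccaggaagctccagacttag
Oas1c, chr5:120812545-120812664, minus strand: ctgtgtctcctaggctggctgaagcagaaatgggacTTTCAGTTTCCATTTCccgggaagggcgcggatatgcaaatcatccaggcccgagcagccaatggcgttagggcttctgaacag
Oas3, chr5:120777660-120777779, minus strand: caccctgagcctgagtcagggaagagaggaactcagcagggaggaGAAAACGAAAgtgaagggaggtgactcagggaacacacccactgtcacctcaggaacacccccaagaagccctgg
Oasl2, chr5:114896864-114896983, plus strand: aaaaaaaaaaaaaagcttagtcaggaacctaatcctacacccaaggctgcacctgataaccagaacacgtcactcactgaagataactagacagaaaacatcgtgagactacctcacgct

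Oas genes rose in Nd1 neurons, most of them against control levels under 1 FPKM. Of the 8 members, 7 were tested by the authors and all 7 were called higher in Nd1, while Oas3 was not tested. Among all 14841 tested loci, 34.4% were called in either direction and 15.1% were called higher in Nd1. Whether a locus was tested depended on its level. Of 4517 loci above 0 whose higher group reached at most 0.2 FPKM, 0 were tested. Genes as low as Oas1g, Oas2 or Oasl1 in control were thus tested only because of their level in Nd1. Where the higher group lay above 0.2 and up to 0.4 FPKM, 26.8% of 1095 loci were tested. The control levels of Oas1a and Oasl2 fall in that range. The count of called members among those tested is therefore a description. At q under 0.01 the 7 calls were kept, beside 27.2% of tested loci called in either direction. Asking also for at least 1 FPKM in a group left 6, without Oas2, beside 30.9% of tested loci. All of these 6 except Oas1c met this minimum only through their level in Nd1, so it is no independent check. Summed over the 8 members, the level was 131 FPKM in Nd1 and 2.86 FPKM in control. In Nd1, 6 of the 8 were above 1 FPKM, and in control only Oas1c was.

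**Figure D1:**
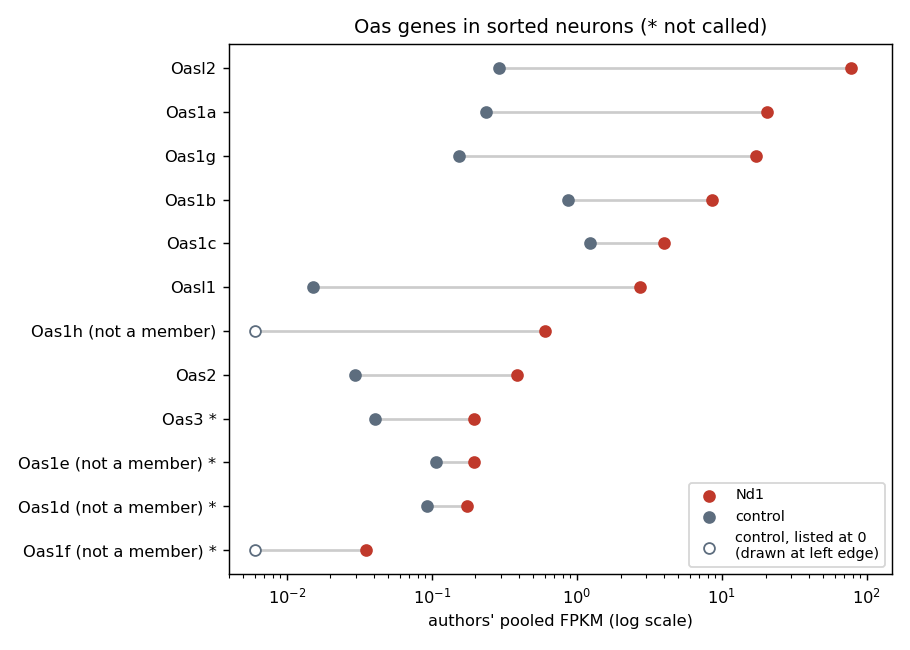
Authors' pooled FPKM (log axis) of the 8 Oas members and the 4 other Oas1 loci, with Nd1 in red and control in grey. Oasl2 reached 77.7 FPKM in Nd1 against 0.289 FPKM in control, and open circles mark loci listed at 0 in control.

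The active synthetases of the Oas1 group, Oas1a and Oas1g, rose to similar levels. Oas1a (mm9 chromosome 5, 121346266 to 121357534) stood at 20.6 FPKM in Nd1 and 0.236 FPKM in control, with a log2 fold change of 6.45 and q listed as 0 in the authors' deposited table. Oas1g (mm9 chromosome 5, 121326151 to 121337607) stood at 17.1 FPKM in Nd1 and 0.154 FPKM in control, a log2 fold change of 6.80 with q listed as 0 in the authors' deposited table. The level of Oas1a was 1.21 times that of Oas1g in Nd1 and 1.54 times in control. These neighbours are near copies, and part of their reads cannot be assigned to one of them by sequence. Cut into windows of 50 bases, 57.6% of the GENCODE M21 transcript of Oas1a recurred without a mismatch in transcripts of Oas1g, and 54.1% of that of Oas1g recurred in Oas1a. With windows of 100 bases, 40.9% of the Oas1a transcript still recurred in another Oas transcript. How the authors' pipeline divided such reads is not given in the sources used here, so the split between Oas1a and Oas1g is uncertain. Their sum was 37.7 FPKM in Nd1 and 0.390 FPKM in control. It depends less on the split only if shared reads were neither dropped nor counted at both loci, which is not known.

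**Figure D2:**
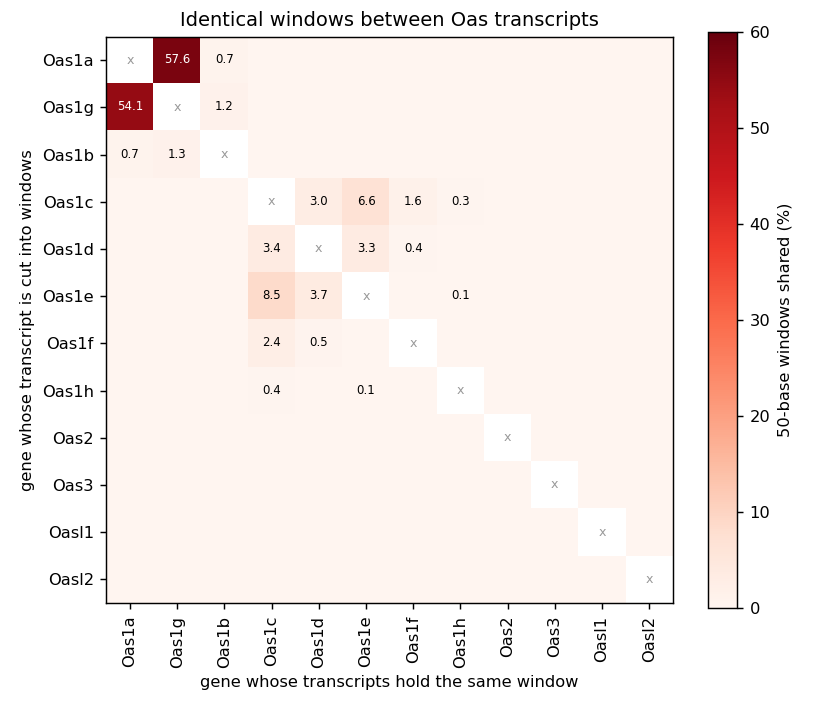
Share of 50-base windows of each Oas transcript (rows, the longest protein-coding transcript of GENCODE M21) that recur without a mismatch in transcripts of another Oas gene (columns), in percent. Oas1a and Oas1g shared 57.6% and 54.1% of their windows, and the next highest share was 8.50%, of Oas1e windows in Oas1c.

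Oas1b and Oas1c, the Oas1 members with the highest control levels, rose by smaller factors. Oas1b, known as the flavivirus resistance gene of mice (mm9 chromosome 5, 121262644 to 121274169), stood at 8.52 FPKM in Nd1 and 0.865 FPKM in control, a 9.84-fold higher level with q listed as 0 in the authors' deposited table. GENCODE M21 lists 1 of its 3 transcripts as a polymorphic pseudogene, and the labels do not name the strain of the mice. Oas1c, a paralog reported to lack synthetase activity (mm9 chromosome 5, 121250208 to 121262523), stood at 3.96 FPKM in Nd1 and 1.23 FPKM in control, a 3.21-fold higher level with q = 2.76e-08 in the authors' deposited table. Together Oas1b and Oas1c made up 9.51% of the summed FPKM of the 8 members in Nd1, against 73.3% in control. The order of Oas1a and Oas1c was turned round, with Oas1a at 5.20 times the level of Oas1c in Nd1 and at 0.191 times in control. Fewer of their windows were ambiguous than of those of Oas1a and Oas1g. Of the 50-base windows, 1.35% in Oas1b and 10.7% in Oas1c recurred in another Oas transcript. With windows of 36 bases the shares were 2.45% for Oas1b and 19.0% for Oas1c.

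The large synthetases were the scarcest members in Nd1, whereas in control Oasl1 lay below both. Oas2, whose protein carries tandem synthetase domains (mm9 chromosome 5, 121180342 to 121199857), rose to 0.386 FPKM in Nd1, against 0.0294 FPKM in control, with q = 0.00486 in the authors' deposited table. Oas3, the largest family member, whose protein carries tandem synthetase domains as well (mm9 chromosome 5, 121203107 to 121227668), stood at 0.196 FPKM in Nd1 and 0.0405 FPKM in control. Its plain ratio of 4.83 carries no call, because the authors marked the locus as not tested. Neither gene shared a window of 36 bases or longer with another Oas transcript. On the log2(FPKM + 1) scale the differences were 0.43 for Oas2 and 0.20 for Oas3, the smallest among the 8 members.

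The synthetase-like genes included the highest member and the member nearest to 0 in control. Oasl2, which in mice encodes a dsRNA-activated synthetase with ubiquitin-like domains (mm9 chromosome 5, 115346943 to 115362254), stood at 77.7 FPKM in Nd1 and 0.289 FPKM in control. It alone made up 59.2% of the summed FPKM of the 8 members in Nd1, against 10.1% in control. Its log2 fold change was 8.07 with q listed as 0 in the authors' deposited table. Oasl1, a relative without synthetase activity that in mice represses translation of Irf7 (mm9 chromosome 5, 115373249 to 115387920), stood at 2.73 FPKM in Nd1 and 0.0151 FPKM in control. Its log2 fold change was 7.50 with q = 0.00343 in the authors' deposited table. The plain ratios were 269 for Oasl2 and 181 for Oasl1, both against control values so low that the ratio has little precision. The levels themselves lay far apart, Oasl2 being 28.5 times Oasl1 in Nd1 and 19.2 times in control. Neither shared a window of 36 bases with another Oas transcript.

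The strength of the authors' test did not follow the size of the ratio. The test statistic in the authors' deposited table carries the opposite sign to the fold change, and it was -27.6 for Oasl2, -16.2 for Oas1a, -13.5 for Oas1g, -9.96 for Oas1b and -5.94 for Oas1c. Oasl1, with the second largest ratio, had a statistic of -3.35, close to -3.24 for Oas2. Untested Oas3 has a listed p of 0.00102 beside a q of 1 in the authors' deposited table. From highest to lowest, the order of levels in Nd1 was Oasl2, Oas1a, Oas1g, Oas1b, Oas1c, Oasl1, Oas2 and Oas3. In control the order was Oas1c, Oas1b, Oasl2, Oas1a, Oas1g, Oas3, Oas2 and Oasl1. Which neighbours in these orders differ beyond replicate error cannot be said from pooled values.

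**Figure D3:**
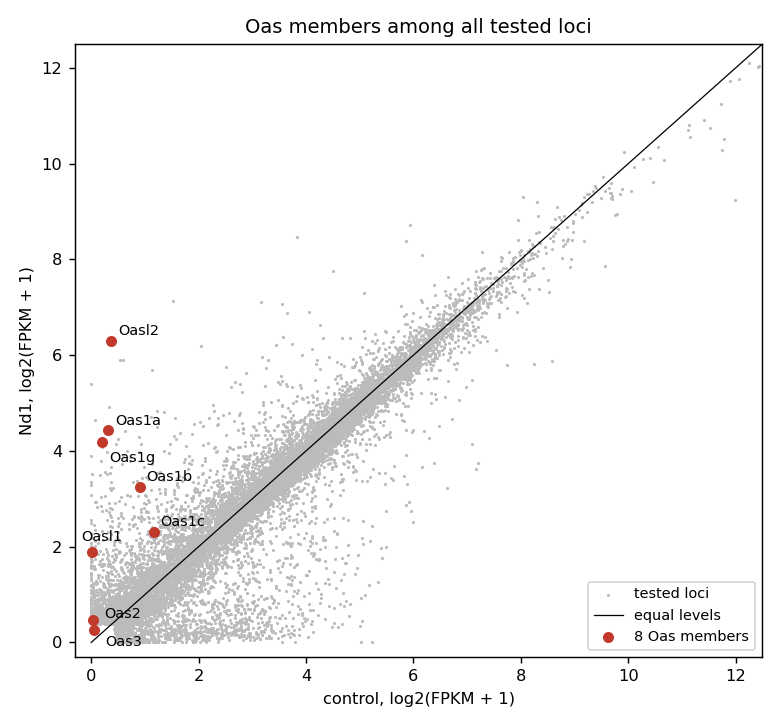
Each tested locus by its level in Nd1 (y axis) and in control (x axis), both as log2(FPKM + 1), with the 8 Oas members in red and the line of equal levels in black. Oas3 is drawn although it was not tested, and Oasl2 lies farthest above the line, at a difference of 5.93.

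Set among all tested loci, the differences of the 7 tested members were spread over the upper part of the distribution. On the log2(FPKM + 1) scale, with Nd1 over control, Oasl2 had the largest difference of the 14841 tested loci at 5.93, Oas1a ranked 11th at 4.13 and Oas1g ranked 13th at 3.97. Oas1b followed at rank 107, Oasl1 at 176, Oas1c at 453 and Oas2 at 1789. The median difference of the 8 members was 2.11, beside -0.058 for all tested loci. By level, Oasl2 exceeded or equalled 97.4% of the 28168 loci in Nd1 and 46.7% in control, and Oas3 45.3% in Nd1 and 35.0% in control. In control only Oas1b (53.1%) and Oas1c (55.3%) exceeded or equalled more than 50% of the loci.

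The genes whose pair of levels was most like that of a member were found by distance in log2(FPKM + 1) over the 2 pooled values, Nd1 and control, which is a likeness of those values and no more. Rtp4, a receptor transporter gene (58.8 FPKM in Nd1 and 0.459 FPKM in control, distance 0.44), and Isg15, a ubiquitin-like modifier (58.8 FPKM in Nd1 and 0.505 FPKM in control, distance 0.46), lay nearest to Oasl2. Lgals9, which encodes galectin-9 (17.9 FPKM in Nd1 and 0.408 FPKM in control), and Ifi44 (23.9 FPKM in Nd1 and 0.0555 FPKM in control) lay nearest to Oas1a. For Oas1g the nearest were 4933406M09Rik and the helicase gene Ddx60, and for Oas1b they were the potassium channel gene Kcnn3 and the nectin gene Pvrl3. Cdk15 and Igf2bp2 lay at a distance of 0.022 from Oas1c, and Chrdl2 and Nrxn3 within 0.025 of Oas2. For Oasl1 the nearest were 9330175E14Rik and Kcnk10, of which Kcnk10 was tested without a call although it was listed at 2.58 FPKM in Nd1 and at 0 in control. The other 13 of these 14 loci were called higher, beside 15.1% of all tested loci, but they were picked by levels that lie close to those of called members, so nothing is read from this count.

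The 4 remaining Oas1 loci stayed under 1 FPKM in both groups. Oas1h stood at 0.606 FPKM in Nd1 and 0 FPKM in control, and rose with q = 1.14e-07 in the authors' deposited table. It too was tested only through its level in Nd1. Oas1d (0.175 FPKM in Nd1 and 0.0928 FPKM in control), Oas1e (0.194 FPKM in Nd1 and 0.107 FPKM in control) and Oas1f (0.0353 FPKM in Nd1 and 0 FPKM in control) were not tested. Oas1e, Oas1f and Oas1h lie between members on the chromosome, so low and high Oas1 genes stand side by side there.

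The genes lie in 2 groups on mm9 chromosome 5, Oasl2 and Oasl1 within 41.0 kb, and Oas1, Oas2 and Oas3 genes within 191 kb. The nearest 3 named genes on each side, 13 in all with a tie for place 3, were compared with them. Of the 10 that were tested, 2 rose and 0 fell, beside 15.1% of all tested loci called higher and 19.2% called lower. Ccdc42b stood at 4.52 FPKM in Nd1 and 0.764 FPKM in control (q = 5.21e-10), and the phosphatase gene Ptpn11 at 29.9 FPKM in Nd1 and 25.0 FPKM in control (q = 0.0164), both in the authors' deposited table. The genes immediately beside the groups had no call. Dtx1, a ubiquitin ligase gene, lies 18.7 kb before Oas2 and stood at 90.6 FPKM in Nd1 and 105 FPKM in control. The transcript 2210016L21Rik lies 4.29 kb after Oasl1 and stood at 56.2 FPKM in Nd1 and 49.2 FPKM in control. Rph3a, 18.9 kb after Oas1d, was at 0.0411 FPKM in Nd1 and 0.00738 FPKM in control and was not tested.

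**Figure D4:**
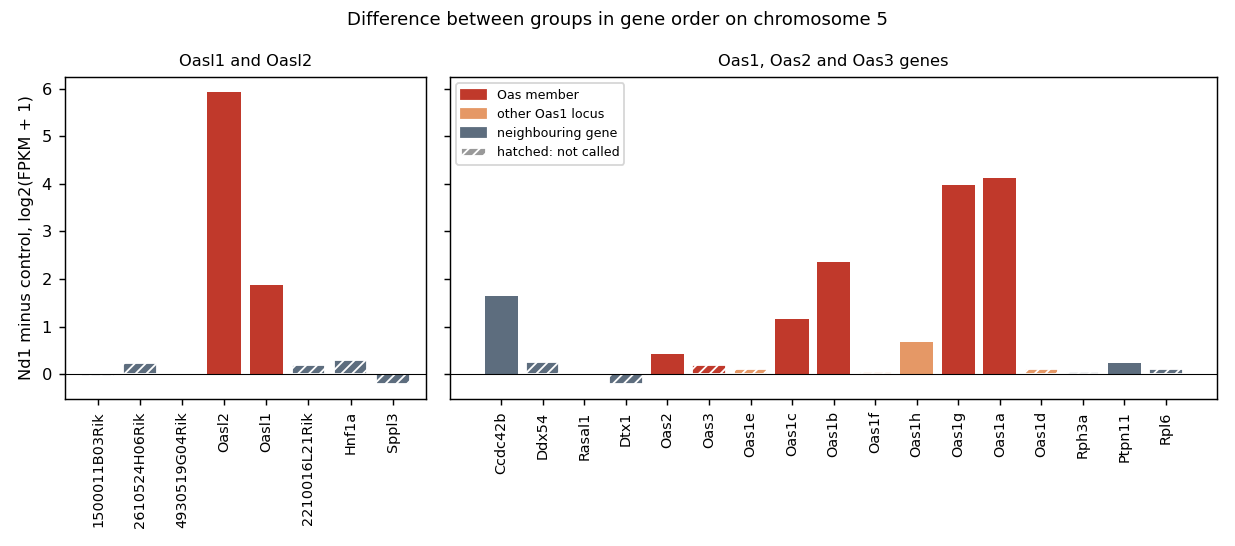
Difference in log2(FPKM + 1), Nd1 minus control, of the Oas genes and their nearest named neighbours in gene order on chromosome 5, with hatched bars for loci that were not called. Oasl2, Oas1a and Oas1g had differences of 5.93, 4.13 and 3.97, and the highest neighbour, Ccdc42b, had 1.65.

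Genes listed for the breakdown of the oligoadenylates, and Abce1 listed with them, had no call. Pde12, a phosphodiesterase that in human cells degrades them, stood at 10.9 FPKM in Nd1 and 12.1 FPKM in control (q = 0.53). Akap7, an anchoring protein with a like phosphodiesterase activity in mice, stood at 14.2 FPKM in Nd1 and 14.5 FPKM in control (q = 0.91). Abce1, a ribosome recycling factor listed with them, stood at 20.8 FPKM in Nd1 and 19.4 FPKM in control (q = 0.63, all in the authors' deposited table). Of these 3 genes, all tested, 0 rose and 0 fell, beside 34.4% of all tested loci called. A missing call does not show that they were equal in both groups.

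Other dsRNA sensors and their partners rose more often than not. Of 12 listed genes, 11 were tested, 8 rose and 0 fell, which is 72.7% of those tested. Among all tested loci, 15.1% were called higher and 34.4% in either direction. The median difference over the 12 was 1.81 on the log2(FPKM + 1) scale. The RIG-I-like receptor Dhx58 stood at 20.4 FPKM in Nd1 and 0.54 FPKM in control, and the helicase Ddx60 at 16.6 FPKM in Nd1 and 0.382 FPKM in control. Of loci whose higher group lay as low as Ddx60 in control, above 0.2 and up to 0.4 FPKM, 26.8% were tested. The count of called genes is therefore a description here too. Eif2ak2, which encodes PKR, the other classical dsRNA-activated enzyme beside the synthetases, stood at 12.6 FPKM in Nd1 and 2.33 FPKM in control. Ifih1 (MDA5), Tlr3, Trim25, Ddx58 (RIG-I) and the dsRNA-editing Adar also rose. The adaptors Mavs (11.9 FPKM in Nd1 and 14.1 FPKM in control) and Ticam1 (1.11 FPKM in Nd1 and 1.62 FPKM in control) and the kinase Tbk1 (9.73 FPKM in Nd1 and 9.87 FPKM in control) had no call, and Zbp1 was not tested.

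**Figure D5:**
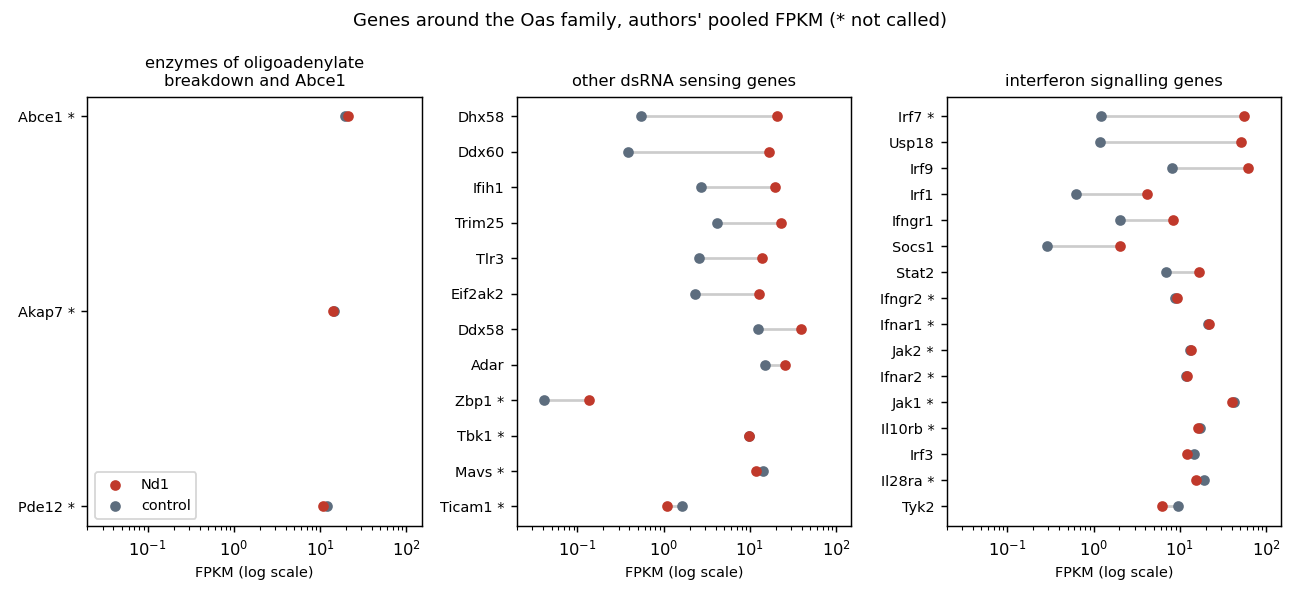
Authors' pooled FPKM (log axis) of genes of the oligoadenylate pathway, other dsRNA sensing genes and interferon signalling genes, with Nd1 in red and control in grey and an asterisk for genes without a call. Dhx58 stood at 20.4 FPKM in Nd1 and 0.54 FPKM in control, and the receptor genes Ifnar1 and Ifnar2 lay almost at the same level in both groups.

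Interferon signalling genes were called in both directions. Of 16 listed genes 15 were tested, 6 rose and 2 fell (53.3% of those tested, beside 34.4% of all tested loci in either direction, 15.1% higher and 19.2% lower), with a median difference of 0.047 on the log2(FPKM + 1) scale over the 16. Stat2 and Irf9 of the complex that binds the response element rose, with Stat2 at 16.6 FPKM in Nd1 and 6.97 FPKM in control and Irf9 at 61.4 FPKM in Nd1 and 8.11 FPKM in control. The negative regulator Usp18, which removes ISG15 from proteins, stood at 50.6 FPKM in Nd1 and 1.19 FPKM in control. The factor Irf1, the interferon gamma receptor chain Ifngr1 (8.46 FPKM in Nd1 and 2.05 FPKM in control) and the inhibitor Socs1 rose as well. Socs1 stood at 2.03 FPKM in Nd1 and 0.290 FPKM in control, and most loci as low as that in both groups were not tested. Tyk2, a kinase of the receptor (6.24 FPKM in Nd1 and 9.41 FPKM in control), and Irf3 (12.2 FPKM in Nd1 and 14.8 FPKM in control) fell. The receptor chains of type I interferon had no call, nor had Ifngr2, Jak1 and Jak2, with Ifnar1 at 22.0 FPKM in Nd1 and 21.4 FPKM in control and Ifnar2 at 12.12 FPKM in Nd1 and 11.96 FPKM in control. Irf7, the factor whose translation Oasl1 represses in mice, stood at 55.3 FPKM in Nd1 and 1.23 FPKM in control, but the authors' test failed for it and it carries no call.

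Transcripts of interferon itself were scarce. Of 19 listed interferon genes 13 were listed at 0 in both groups, among them Ifnb1, Ifng and Ifne, and 18 were not tested. Ifna4 was listed at 0.416 FPKM in Nd1 and at 0 in control and rose with q = 0.00726 in the authors' deposited table. This locus was tested only through its level in Nd1, and the call was lost where at least 1 FPKM in a group was required. Its relatives are close copies, so reads could be shared among them. The lambda interferons Il28a (0.12 FPKM in Nd1) and Il28b (0.119 FPKM in Nd1) were both listed at 0 in control and not tested.

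Markers of the sorted cell type and of other cells were read beside these results. Of 10 markers of mature olfactory sensory neurons, 9 were tested and 8 fell, beside 19.2% of all tested loci called lower, and their summed level was 5303 FPKM in Nd1 and 13169 FPKM in control. Omp, at which control replicate 1 alone lacks the tTA allele, stood at 605 FPKM in Nd1 and 4087 FPKM in control. Omp and Stoml3 (1254 FPKM in Nd1 and 3425 FPKM in control) had the largest falls in FPKM, so the sum leans on them. Rtp1 was tested without a call (473 FPKM in Nd1 and 566 FPKM in control). Immature neuron markers rose in 4 of 5 genes, beside 15.1% of all tested loci called higher, with sums of 262 FPKM in Nd1 and 107 FPKM in control. Gng8 (71.7 FPKM in Nd1 and 3.11 FPKM in control) and Stmn1 (81.1 FPKM in Nd1 and 27.3 FPKM in control) had the largest rises in FPKM, so this sum leans on them. Dcx, the highest of them in control, was tested without a call (57.2 FPKM in Nd1 and 55.9 FPKM in control). The part of this shift between neuron markers in the Oas levels was not tested.

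Leukocytes, which also express Oas genes, were read by their markers too. The 6 neutrophil markers summed to 6.46 FPKM in Nd1 and 30.3 FPKM in control, led in control by S100a9 (1.92 FPKM in Nd1 and 10.1 FPKM in control) and S100a8 (1.86 FPKM in Nd1 and 9.02 FPKM in control). All 6 were tested and 5 fell, beside 19.2% of all tested loci called lower. The 12 macrophage and monocyte markers summed to 4.32 FPKM in Nd1 and 8.34 FPKM in control, and of 4 tested 0 rose and 2 fell. Most of that sum came from Lyz2, listed in a joint locus with Lyz1 that fell to 2.24 FPKM in Nd1, against 6.25 FPKM in control. The other macrophage and monocyte markers reached at most 0.465 FPKM in Nd1 and 0.536 FPKM in control. The 9 listed T and NK cell markers summed to 0.416 FPKM in Nd1 and 0.686 FPKM in control, with Cd3g, Cd2, Cd8a and Ncr1 at 0 in Nd1 and Cd3e and Cd3g at 0 in control. The 5 markers of B cells and plasmacytoid dendritic cells summed to 0.307 FPKM in Nd1 and 0.539 FPKM in control, and Siglech was at 0 in control. Of the 3 pan-leukocyte genes, all tested, Ptprc (CD45) fell to 0.0475 FPKM in Nd1, against 0.49 FPKM in control. Coro1a rose to 2.10 FPKM in Nd1, against 1.02 FPKM in control, and Laptm5 had no call (0.331 FPKM in Nd1 and 0.562 FPKM in control). The part of leukocyte transcripts in the Oas levels of either group was not tested.

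Of the other cell types, the 6 sustentacular markers summed to 265 FPKM in Nd1 and 295 FPKM in control, of which Sult1d1 made up 234 FPKM in Nd1 and 254 FPKM in control. Of these 6 markers 0 rose and 2 fell, Krt8 (3.90 FPKM in Nd1 and 6.48 FPKM in control) and Krt18 (8.97 FPKM in Nd1 and 15.5 FPKM in control). The 3 basal markers summed to 6.04 FPKM in Nd1 and 12.2 FPKM in control, and all 3 fell. Beside these counts, 15.1% of all tested loci were called higher and 19.2% lower. Among 4 endothelial markers Pecam1 rose to 2.68 FPKM in Nd1, against 1.49 FPKM in control, while Cdh5, Kdr and Tek were not tested and reached at most 0.0906 FPKM in Nd1 and 0.110 FPKM in control.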

How the data were processed

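Per the submitters' processing notes, reads were aligned with Bowtie and compared with Cuffdiff 1.3.0 on mm9; what annotation and filters were applied, and how shared reads were handled, is not given in the sources used here. Deposited by the authors, the 1 table of the series holds a pooled FPKM value per group for 28168 loci (14841 tested, 12711 not tested, 616 failed). The log2 fold change, p-value and q-value beside them are the authors', per the file headers. It has 0 columns of single libraries used here, so the depth per library is unknown, the planned limma fit was not possible and no test was run. In tested loci the q-value matches a Benjamini-Hochberg adjustment within 1% in 100% of cases, and a q listed as 0 is printed as such. The adjustment used for an alternative was tested on simulated data.

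Differences were taken as log2(FPKM + 1), a scale on which low genes appear to change less. A symbol with several loci (Dhx58) is represented by that of the highest mean FPKM, and one listed only jointly with another (Lyz2, Klrb1c) by the joint locus. The 8 members are named whatever their values. Of each other list, the largest called changes, the genes that complete small counts, the nearest chromosomal neighbours and the 2 nearest loci by level of each called member are named. The members and lists were chosen with earlier results of these data known, and a few genes of the lists are not reported here. Table coordinates are mm9, with 1 added to each start; promoter windows are RefSeq GRCm38.p6 and transcripts GENCODE M21, used without converting coordinates. Python 3.11.15, pandas 2.3.3 and matplotlib 3.10.9 were used.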

Additional observations from a re-analysis of the deposited data

How the results depend on the processing

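The 8 members kept their direction under all 32 recomputations (a pseudocount of 0.1 FPKM, the plain ratio, quantile normalization, and centring on the median tested locus, which lay at -0.060). Only quantile normalization could have reversed a direction. A pseudocount or the plain ratio keeps the sign, and centring on a negative median raises every difference. Their log2 values depended on the scale where control was near 0, from 1.88 to 7.50 for Oasl1, 0.43 to 3.72 for Oas2 and 0.20 to 2.27 for Oas3, but only from 1.15 to 1.68 for Oas1c. The authors' calls do not depend on that scale. Requiring at least 1 FPKM in a group left 6 called members, all but Oas1c reaching it only in Nd1. With that minimum, or with the adjustment repeated above it, the single called interferon gene was lost and the count was 0 (settings added after seeing the data). No paired analysis was possible because the table holds 1 pooled value per group, and for the same reason leaving out single replicates was not run. The part of age and of the differing control genotypes cannot be examined in pooled values, and the low control values limit every ratio.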
